A study of Mus musculus with 4 samples.

Results

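The 41 collagen genes on the mouse autosomes were examined for CpG methylation in colonic epithelium around birth and around weaning. They were taken as all autosomal protein-coding genes of the GENCODE M1 annotation, on genome build mm9, whose symbol is Col followed by a digit. This rule found 42 of 21410 genes. The additional one, Col4a3bp, codes for a ceramide transfer protein and not for a collagen, and it is given apart.

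Whole-genome bisulfite sequencing, which reads unmethylated cytosines as thymines and methylated ones as cytosines, was applied to 4 sorted populations of the mouse colon, with the strain labelled C57. Intestinal stem cells (ISCs) were sorted as Lgr5-EGFP positive, and differentiated cells as EpCAM positive and Lgr5-EGFP negative, at postnatal days 0 (P0) and 21 (P21). All 4 groups came from offspring of mice with the Lgr5-EGFP-CreER knock-in, on the C57BL/6 J background, and wild-type C57 animals. Offspring positive for the reporter were pooled at P21, while whole litters were pooled at P0, so the differentiated cells of P0 may include pups without the knock-in. Where carried, the reporter was driven from the Lgr5 locus, and it is known to be expressed in a mosaic of crypts. Each group was 1 library made from pooled animals, so no spread between animals could be estimated.

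Collagens are matrix proteins built of 3 chains wound into a triple helix, which needs a glycine repeated regularly along each chain. Fibrillar collagens give connective tissue its tensile strength, type IV collagens form the network of basement membranes, and fibril-associated collagens decorate the fibrils. In the gut most collagen is made by cells of the lamina propria rather than by the epithelium, although epithelial cells can make basement membrane components and the transmembrane collagen of hemidesmosomes. Methylation of CpG-rich promoters usually accompanies silence, while CpGs in bodies of genes are mostly methylated irrespective of activity.

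Methylated and unmethylated calls of both strands were summed in bins of 200 bp, and bins with at least 2 CpGs and 10 calls in all 4 libraries were kept. The collagen genes held 10410 such bins of 4076373. A promoter reached 1000 bp to either side of the start of the transcript with the longest coding sequence, and the level of a promoter, last exon or remaining gene body was the mean of its bin levels. Levels are listed throughout with both P0 libraries first and both P21 libraries after them, and within each age the ISCs come before the differentiated cells. Differences are in percentage points, as P21 minus P0 or differentiated minus ISC.

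The libraries held between 1023427645 and 1188114423 cytosine calls in CpG context. The deepest bin of each library alone held 223255239, 209254094, 219934838 and 182120634 of them, so the totals overstate the general depth. The deepest collagen bin had 1244 calls. The median collagen bin had 57, 88.5, 60 and 73 calls, so differentiated cells at P0 were measured most deeply. Mean levels of collagen bins were 77.5%, 77.4%, 76.5% and 75.8%, beside 77.0%, 76.9%, 76.7% and 76.2% over all bins. Promoters of 8 epithelial marker genes had medians of 5.86%, 9.0%, 3.81% and 2.21%, those of 8 haematopoietic genes 71.2%, 74.4%, 75% and 72.7%, those of 8 mesenchymal genes 32.9%, 35.6%, 35.3% and 35.2%, and those of 6 endothelial genes 71.9%, 69.4%, 64.2% and 66.2%. These lists differ in CpG density, and among high-density promoters of ISCs at P0 the 5 epithelial genes had a median of 4.19%, the 2 mesenchymal genes 2.28% and the 1 endothelial gene 3.08%. The epithelial genes did not move together with age. Vil1, which codes for villin of the brush border, had 12.9%, 11.9%, 1.70% and 0%, and Cdx1, Cdx2, Cldn7 and Krt18 were also lower at P21 in both populations. Epcam, with 11.3%, 11.8%, 11.5% and 12.0%, and Cdh1, with 6.96%, 7.79%, 9.03% and 8.45%, were higher at P21 in both, and Krt8 had 4.76%, 10.2%, 5.93% and 2.93%. The level in a bulk library mixes cells, so a change within cells and a change in the share of cells cannot be told apart, and the part of cell mixture in the results was not tested.

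The sequences just upstream of the start show how unlike each other collagen promoters are. The 200 bases before the start of 6 genes are printed 5′ to 3′ on the strand of the gene, with the measured CpGs in capitals. Col5a1, a chain that limits the diameter of collagen fibrils, lies on the plus strand with this stretch at chr2:27741745-27741944, and its 20 CpGs had levels of 0.73%, 0.56%, 0% and 1.17%. The 0% was 0 of 124 calls.
Col5a1: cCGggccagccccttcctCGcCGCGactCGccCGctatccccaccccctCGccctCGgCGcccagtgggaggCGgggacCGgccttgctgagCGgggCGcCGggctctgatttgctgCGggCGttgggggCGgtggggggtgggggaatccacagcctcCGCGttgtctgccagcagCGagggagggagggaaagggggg

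Col1a1 and Col3a1 code for the main chains of the fibrils in connective tissue. The 200 bases before Col1a1, at chr11:94797338-94797537 on the plus strand, hold 7 CpGs, with levels of 48.7%, 33.8%, 26.1% and 43.1%. The same stretch before Col3a1, at chr1:45368183-45368382 on the plus strand, holds no CpG at all, so nothing could be measured there.
Col1a1: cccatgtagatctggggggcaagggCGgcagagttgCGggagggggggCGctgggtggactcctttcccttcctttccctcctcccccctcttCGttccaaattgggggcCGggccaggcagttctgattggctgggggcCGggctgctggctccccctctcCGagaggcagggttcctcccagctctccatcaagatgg
Col3a1: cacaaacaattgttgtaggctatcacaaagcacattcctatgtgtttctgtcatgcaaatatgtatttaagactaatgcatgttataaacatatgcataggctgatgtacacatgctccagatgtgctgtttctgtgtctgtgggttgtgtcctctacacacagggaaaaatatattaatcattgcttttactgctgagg

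Col17a1, the hemidesmosomal collagen, and Col7a1, the collagen of anchoring fibrils, are made by epithelia such as the epidermis. The stretch before Col17a1, at chr19:47766585-47766784 on the minus strand, holds 2 CpGs, with levels of 4.0%, 6.49%, 3.70% and 7.58%. That before Col7a1, at chr9:108855431-108855630 on the plus strand, holds 7 CpGs, with levels of 0%, 0%, 1.08% and 1.87%.
Col17a1: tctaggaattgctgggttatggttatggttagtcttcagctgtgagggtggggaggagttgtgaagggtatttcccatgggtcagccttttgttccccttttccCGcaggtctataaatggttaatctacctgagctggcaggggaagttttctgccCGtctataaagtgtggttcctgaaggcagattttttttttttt
Col7a1: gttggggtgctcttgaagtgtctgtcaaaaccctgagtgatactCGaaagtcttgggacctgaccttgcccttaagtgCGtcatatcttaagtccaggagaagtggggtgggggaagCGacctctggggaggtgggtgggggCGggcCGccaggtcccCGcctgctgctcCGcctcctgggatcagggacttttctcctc

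Col10a1, the network collagen of hypertrophic cartilage, had the highest promoter level of the family in ISCs at P0. The stretch before it, at chr10:34109587-34109786 on the plus strand, holds 4 CpGs, with levels of 68.2%, 57.4%, 75% and 59.3%.
Col10a1: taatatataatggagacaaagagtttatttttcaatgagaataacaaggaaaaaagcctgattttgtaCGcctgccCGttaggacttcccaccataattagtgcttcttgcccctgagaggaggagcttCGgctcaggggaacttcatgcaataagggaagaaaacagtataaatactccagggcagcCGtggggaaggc

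Of the 41 collagen promoters, 13 had high, 14 intermediate and 14 low CpG density. High density meant a window of 500 bp with an observed to expected CpG ratio above 0.75 and a GC content above 55%, and low density meant no window with a ratio above 0.48. These shares of 31.7%, 34.1% and 34.1% stand beside 49.0%, 19.5% and 31.5% of all genes. The type VI and related collagens had 6 of 7 promoters of low density and none of high density, while 3 of 4 transmembrane collagens had high density.

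Within 200 bp of the start, 26 of 41 collagens were below 10% in all 4 libraries, a share of 63.4% beside 62.2% of all genes. High-density promoters were below 10% in 13 of 13 collagens, beside 96.6% of all such genes. Intermediate ones were below it in 11 of 14, or 78.6%, beside 53.1%, and low-density ones in 2 of 14, or 14.3%, beside 7.30%. Levels above 50% in all 4 libraries were found in 4 collagens, Col9a1, Col6a3, Col28a1 and Col10a1, all of low density, a share of 9.76% beside 25% of all genes. Levels within 200 bp had no minimum of calls, and Col9a1 in differentiated cells at P21 rested on 5 of 7 calls. No test of the collagens against other genes was run, so these shares describe the list and do not set it apart.

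**Figure D1:**
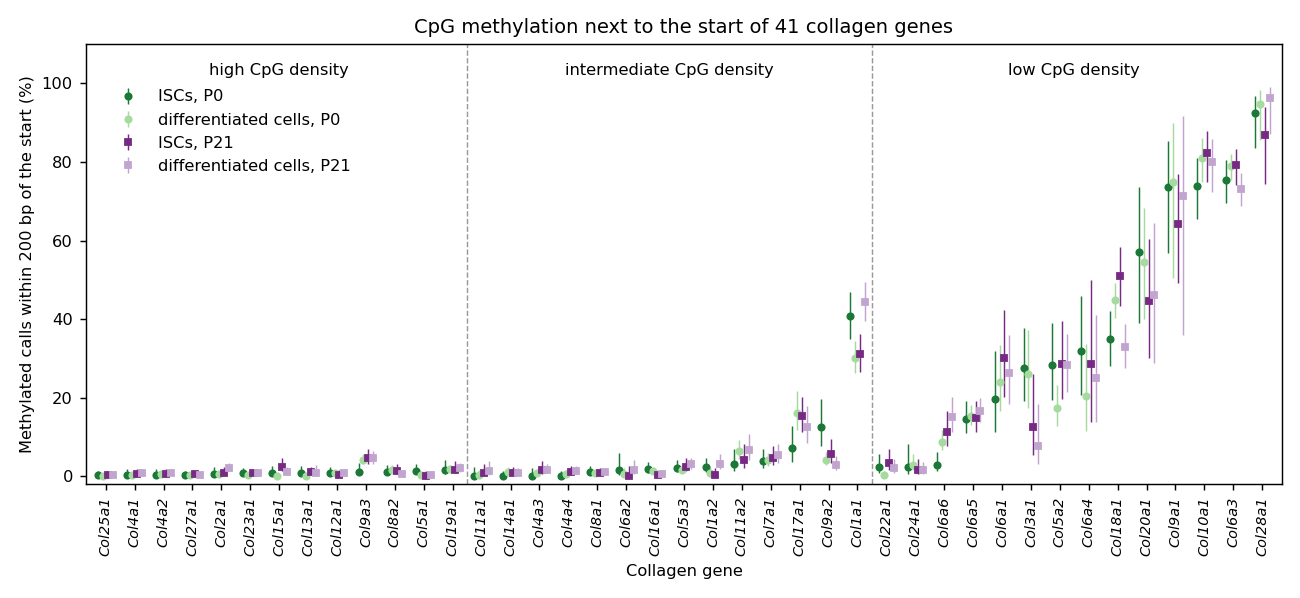
Methylated calls, in percent, within 200 bp of the start of each of the 41 collagen genes in the 4 libraries, grouped by CpG density and ordered by the level in ISCs at P0; bars are 95% Wilson intervals for counting error alone. The points lie near 0 in all 13 high-density and in 11 of 14 intermediate genes, with Col1a1 apart at 30.2% to 44.3%, and they spread over most of the scale in low-density genes.

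Col1a1 was the most methylated start of intermediate density. Its CpGs within 200 bp of the start had levels of 40.8%, 30.2%, 31.1% and 44.3%. In the bin 37 bp from the start, levels of 31.5%, 16.9%, 21.1% and 37.6% were measured, a gain with age of 20.7 points in differentiated cells (adjusted p = 0.000276, Fisher's exact test). Col1a2, the partner chain of type I collagen, was at 2.28%, 0.88%, 0.38% and 3.23% within 200 bp of its start, so the genes of this heterotrimer stood apart in all 4 libraries.

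The profile around the start had the same shape in each density group. At 100 bp upstream in ISCs at P0, the mean level was 1.87% in high-density collagens and 2.07% in all genes of that density. It was 4.74% in intermediate collagens and 25.8% in all intermediate genes, and 29.7% over 8 bins in low-density collagens and 57.1% in all such genes. The longest stretch around a start with every tested bin below 20% in all 4 libraries was 4600 bp, at Col2a1, the main collagen of cartilage. At Col13a1, a transmembrane collagen of neuromuscular junctions, it was 2800 bp, and at Col27a1, a fibrillar collagen of cartilage, 2600 bp.

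**Figure D2:**
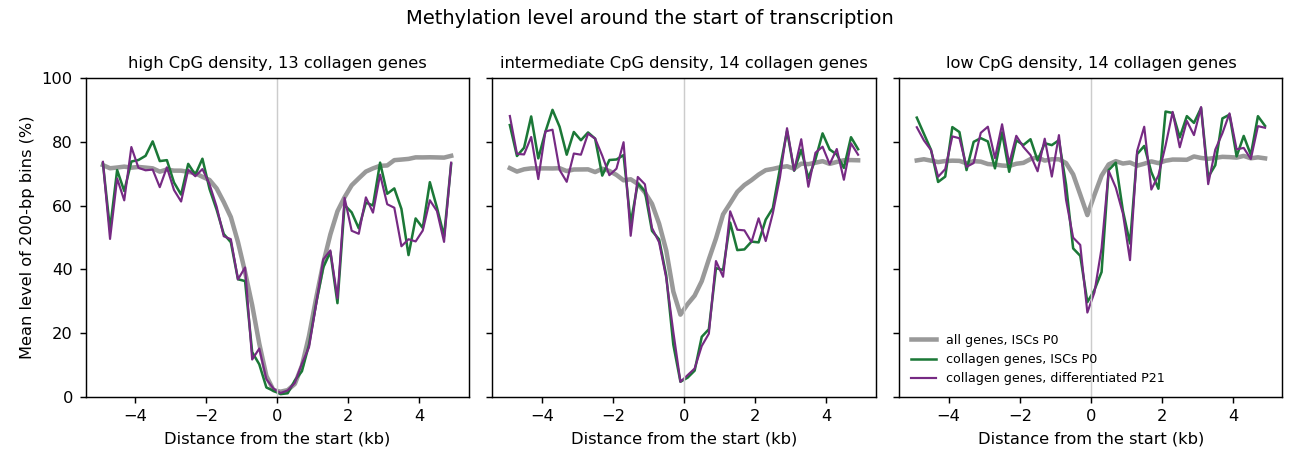
Mean level of 200-bp bins, in percent, against distance from the start in kb, for collagen promoters of high, intermediate and low CpG density in ISCs at P0 (green) and differentiated cells at P21 (purple), with all genes of that density in ISCs at P0 (grey). All 3 panels dip at the start, to 1.87%, 4.74% and 29.7% at 100 bp upstream in collagens of ISCs at P0, and the lines of both collagen libraries run close together.

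Over the whole promoter of 2 kb, the 40 collagens with tested bins had median levels of 23.8%, 25.1%, 22.2% and 25.2%, beside 21.4%, 21.5%, 21.3% and 21.2% in all genes. Gene by gene, the median change with age was 0.68 points in ISCs, with 27 of 40 collagens above 0, and 0.14 points in differentiated cells, with 22 above 0, beside 0 and -0.09 points over all genes. High-density collagens had medians of 3.85%, 4.92%, 4.92% and 6.51%, intermediate ones 23.8%, 22.5%, 23.5% and 27.0%, and low-density ones 59.1%, 57.4%, 55.6% and 51.5%. All genes of these groups had 8.48%, 33.5% and 78.1% in ISCs at P0. Col28a1, a von Willebrand domain collagen, had no tested promoter bin, and its single CpG within 200 bp of the start was between 87.0% and 96.2%.

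Among the fibrillar collagens, promoter levels in ISCs at P0 ran from Col27a1, with 0.44%, 0.62%, 0.90% and 0.76%, to Col5a3, with 32.6%, 28.8%, 36.2% and 31.8%. Within 200 bp of its start, Col5a3 was only at 1.70% to 3.02%. Col1a1 had 24.3%, 20.3%, 20.3% and 29.1%, and Col1a2 had 4.49%, 6.97%, 8.81% and 7.27%. The cartilage collagen genes Col2a1 and Col11a1 were low in every library, at 2.93% to 6.51% and at 2.15% to 4.94%.

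Col3a1, the collagen of reticular fibres, was the one promoter called between ages. Its single tested bin had levels of 27.6%, 26.0%, 12.5% and 7.84%, from 87, 73, 40 and 51 calls. The 18.2 points lost in differentiated cells passed the test (adjusted p = 0.0446, Fisher's exact test), in a comparison that called losses in 2.04% and gains in 1.3% of all promoters. The level was lower at P21 than at P0 in both populations, but the 15.1 points lost in ISCs were not called. The bin holds 4 CpGs, and among promoters within 500 bp of the start its adjusted p was 0.0705. In ISCs, where 1.52% of all promoters gained with age, no collagen promoter was called.

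The basement membrane genes Col4a1 and Col4a2 start 21 bp apart on opposite strands and share all 10 promoter bins, which stood at 3.85%, 4.92%, 4.53% and 5.05%. Col4a3 and Col4a4, whose chains make the network of the mature glomerulus, start 127 bp apart and share 8 bins. Col4a3 had 23.3%, 21.7%, 24.1% and 19.2%, and Col4a4 31.0%, 29.6%, 31.6% and 27.4%. In the shared core the calls were close to unmethylated, with Col4a3 at 0%, 0.84%, 1.57% and 1.56% within 200 bp of its start. Col10a1 was the highest of the network collagens at 83.8%, 78.0%, 86.2% and 82.2%, and of the whole family in every library but differentiated cells at P0, where Col9a1 was higher.

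Fibril-associated promoters ran in ISCs at P0 from Col12a1, which binds type I fibrils, at 1.42%, 1.79%, 2.62% and 1.75%, to Col9a1, a chain of cartilage collagen IX, at 78.0%, 79.4%, 80.7% and 78.3%. Of the 3 chains of collagen IX, Col9a1 stood apart from Col9a2, at 38.2% to 41.3%, and Col9a3, at 29.7% to 34.5%. Within 200 bp of the start, Col9a1 was at 64.3% to 75%, with as few as 7 calls, Col9a2 at 2.94% to 12.6% and Col9a3 at 1.16% to 4.72%. Col14a1, another collagen on the surface of fibrils, had 3.96%, 3.83%, 5.64% and 5.66%.

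The chains of collagen VI form beaded microfilaments, and the median promoter of type VI and related collagens, 55.6% over 6 genes in ISCs at P0, was the highest of any class. It stood beside 8.74% in the 11 fibrillar, 21.2% in the 7 basement membrane and network, 31.3% in the 9 fibril-associated, 14.1% in the 4 transmembrane and 40.8% in the 2 multiplexin genes. Of the 7 type VI and related genes, 6 had low CpG density, and the median of low-density collagens given above was higher still. Col6a4 was the highest in ISCs at P0, at 66.6%, 63.8%, 63.9% and 64.6%, and Col6a2 the lowest, at 30.3%, 28.5%, 29.9% and 27.9%. Col6a3 had 64.5%, 76.4%, 69.1% and 68.7%. The mean over its bins was 11.9 points higher in differentiated cells than in ISCs at P0. In that comparison 0.551% of all promoters were called higher. At P21 the Col6a3 levels of both populations lay within 1 point of each other. The call did not hold with all calls pooled, where the difference was 6.48 points. Within 200 bp of the start, ISCs at P0 had 1.68% in Col6a2, 2.96% in Col6a6, 14.5% in Col6a5 and 19.6% in Col6a1. Col6a4 had 32% there, Col6a3 75.4% and Col28a1 92.4%.

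Of the transmembrane collagens, Col17a1 had the most methylated promoter, at 40.8%, 42.9%, 45.1% and 39.8%, and Col13a1 the least, at 2.10%, 1.07%, 1.61% and 2.67%. The methylation of Col17a1 lay away from its start, where the levels within 200 bp were 7.09%, 16.1%, 15.3% and 12.4%. Col7a1, the only anchoring fibril collagen, had 20.4%, 23.2%, 22.9% and 26.6%, and 3.78%, 4.05%, 4.79% and 5.36% within 200 bp of its start. Of the multiplexins, Col15a1 had 17.4%, 19.4%, 19.0% and 19.8%, and Col18a1, whose fragment is endostatin, 64.3%, 69.0%, 65.0% and 60.6%. Another coding start of Col18a1, 52872 bp upstream, had 23.2%, 23.7%, 21.3% and 22.9%, and the multiplexin median given above rests on the start used here. The epithelial collagens Col17a1 and Col7a1, both of intermediate CpG density, did not have the lowest promoters of the family. The promoter of Col4a3bp stood at 0.3%, 0.1%, 0.6% and 0.3%.

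Single promoter bins with called changes were few. In ISCs 5 of 295 promoter bins gained with age, or 1.69% beside 1.16% of the promoter bins of all genes, and none lost methylation, beside 1.27%. In differentiated cells 2 gained and 4 lost, or 0.678% and 1.36%, beside 1.2% and 1.55%. The gains of ISCs lay in Col19a1, Col16a1, Col1a2, Col7a1 and Col18a1. The bin of Col16a1, a fibril-associated collagen, was in a CpG island and rose in both populations, with levels of 9.16%, 12.2%, 27.8% and 29.3%. In Col7a1 the bin went from 25.5% to 40.9% in ISCs and stood at 31.8% and 39.6% in differentiated cells. In differentiated cells the gains were those of Col16a1 and Col1a1 given above, and the losses lay in Col6a3, Col24a1 and Col18a1. The Col6a3 bin at chr1:92740401-92740600 had 64.6%, 67.9%, 40.9% and 44.6%, lower at P21 in both populations. The bin of Col24a1, a minor fibrillar collagen, had 18.2%, 31.3%, 7.94% and 8%.

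Gene bodies were highly methylated and slightly lower at P21. The median body level was 79.2%, 79.0%, 77.9% and 77.6%, and in ISCs at P0 it ran from 55.7% in Col8a2, a network collagen of the cornea, to 92.3% in Col10a1. The median change with age was -1.38 points in ISCs, with 33 of 41 collagens below 0, and -1.46 points in differentiated cells, with 37 of 41 below 0. Over all genes the medians were -0.18 and -0.53 points, with 53.3% and 60.2% below 0. Among genes of at least 50 kb the medians were -1.16 and -1.45 points in 26 collagens, and -0.13 and -0.57 points in 4342 genes. No collagen body passed the limit of 5 points together with the test in any comparison. Over all bodies 2.49% were called gains and 4.11% losses in ISCs, and 2.49% and 4.73% in differentiated cells, and the difference between collagens and other genes was not tested.

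**Figure D3:**
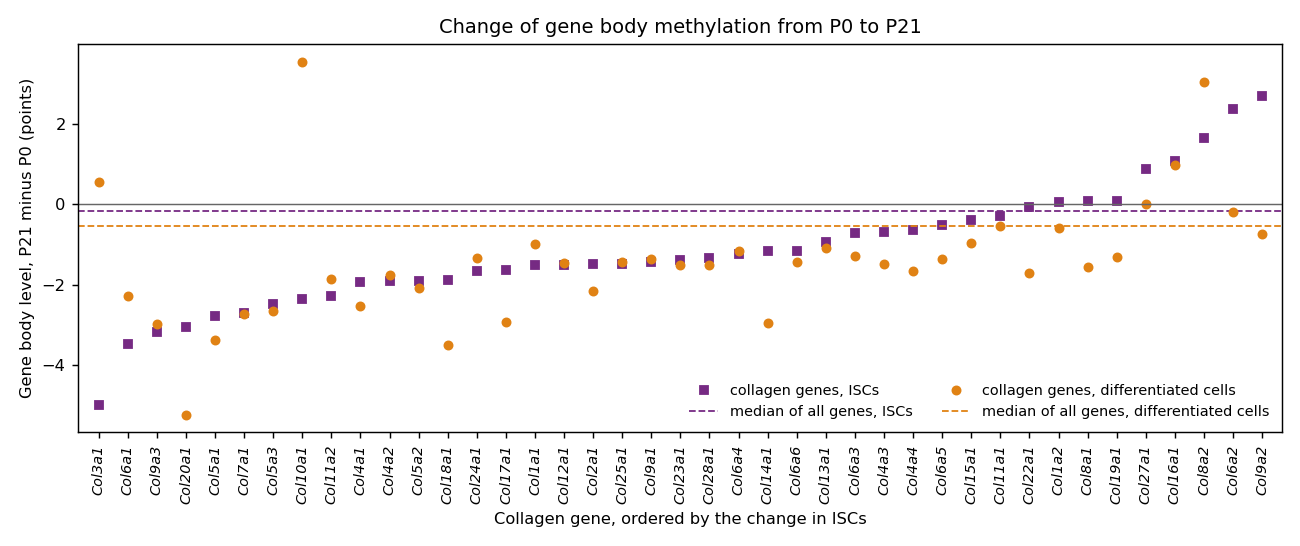
Change of the gene body level from P0 to P21, in percentage points, for each of the 41 collagen genes in ISCs (squares) and differentiated cells (circles), with dashed lines at the medians of all genes. Most symbols lie below both dashed lines, 33 of 41 in ISCs and 37 of 41 in differentiated cells lie below 0, and Col8a2 and Col16a1 lie above 0 in both.

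The individual bodies differed in size and, at times, in direction of change. Col5a1 decreased by 2.79 points in ISCs and 3.38 in differentiated cells, and Col7a1 by 2.71 and 2.74. Col20a1, a fibril-associated collagen, differed by -3.06 and -5.24 points. Col8a2 differed by 1.64 and 3.04 points and Col16a1 by 1.08 and 0.96 points, both upwards. Col3a1 differed by -4.99 points in ISCs and 0.54 points in differentiated cells over 27 bins. None of these was called.

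Collagen genes consist of many short exons, and CpGs in these exons could be compared with those in introns. The 41 genes had a median of 48 exons and a span of 105007 bp. Of 1837 inner exons, 464 were exactly 54 bp long, a share of 25.3% beside 0.681% in all genes, and 63.9% had a length divisible by 9, which is the length that codes for whole Gly-X-Y triplets, beside 14.1%. Exon CpGs had median levels of 84.0%, 82.8%, 81.4% and 81.7% over 39 genes, and intron CpGs 79.0%, 78.7%, 77.3% and 76.9%. Exons were above introns in 33, 31, 33 and 33 of these 39 genes, or 79.5% to 84.6%, beside 74.1% to 75.2% of 13299 genes. The median gap in ISCs at P0 was 4.90 points both in collagens and in all genes. All genes had 86.8%, 86.5%, 86.9% and 86.6% in exons, so the collagen medians were the lower ones in every library.

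The exon level was lower at P21 in most collagens. The median change was -1.76 points in ISCs and -1.06 in differentiated cells, with 32 of 39 genes below 0 in each, beside 0.21 and 0.12 points over all genes. With at least 20 calls per CpG the collagen medians were -0.73 and -1.14 points, with 23 and 27 of 37 genes below 0. Col4a1 had exon levels of 90.1%, 89.3%, 84.4% and 84.6%, and Col25a1, a neuronal transmembrane collagen, 84.4%, 84.0%, 77.4% and 76.6%.

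Last exons had medians of 81.3%, 79.7%, 82.0% and 80.3% over 40 collagens, beside 85.5%, 85.5%, 85.9% and 85.5% in all genes. In ISCs at P0 they ran from 27.7% in Col6a6 to 94.9% in Col17a1. The last exon of Col14a1 had 75%, 65.0%, 80.3% and 86.1%, a gain with age of 21.1 points in differentiated cells. In that comparison 2.27% of all last exons were called gains. The test used summed calls (adjusted p = 0.00116, Fisher's exact test), whose Col14a1 difference was 13.5 points. The last exon of Col9a3 had 54%, 67%, 55.4% and 51.8%. It was 12.9 points higher in differentiated cells than in ISCs at P0 (adjusted p = 0.0208, Fisher's exact test on summed calls). There 0.775% of last exons were called higher. The Col9a3 difference was 4.81 points and not called with at least 20 calls per bin. The collagens had 6 last-exon bins in CpG islands and none was called in any comparison. Over all genes 5.84% of such bins gained in ISCs and 5.45% in differentiated cells, so 6 bins are too few to read anything from.

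Single bins showed much larger changes than whole bodies. A bin was called at an adjusted p below 0.05 by Fisher's exact test and a difference of more than 15 points, and the test compares 2 libraries, not conditions. With age, 67 collagen bins gained and 133 lost methylation in ISCs, or 0.644% and 1.28%, where the backgrounds over all bins were 1.07% and 1.48%. In differentiated cells 56 gained and 175 lost, or 0.538% and 1.68%, with backgrounds of 0.992% and 1.86%. The collagen shares were near or below the background in both directions, so the counts are no result about the family.

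The calls were spread over many genes. In ISCs 31 genes held a gain and 31 a loss, and in differentiated cells 22 and 33. Among the genes with many calls was Col25a1, which also had the most bins of the family, with 3 gains and 17 losses in ISCs and 2 and 14 in differentiated cells among 894 bins. Col19a1, a fibril-associated collagen, had 5 and 11 in ISCs and 8 and 10 in differentiated cells among 525 bins. Col10a1 and Col6a1 had no called bin in any comparison. Bodies made up 9926 of the 10410 bins and held 62 of the 67 gains and all 133 losses of ISCs. The 189 bins of last exons held none in ISCs, where 1.69% of the last-exon bins of all genes gained and 1.46% lost, and 2 gains and 2 losses in differentiated cells, each 1.06%, beside 1.57% and 1.81%.

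Some bins were called in both populations. Of the losses, 44 bins were called in both, which was 33.1% of those in ISCs and 25.1% of those in differentiated cells, beside 45.4% and 36.1% over all bins. Of the gains, 11 were called in both, or 16.4% and 19.6%, beside 23.8% and 25.7%. The age comparisons of the populations share no library. The paper, however, describes pooling litters for the P0 samples and reporter-positive offspring for the P21 samples. Both populations of an age may thus come from the same pool, so a difference between pools could appear in both. Calls shared by the populations are therefore no replication. Among losses called in ISCs, 114 of 133 were also lower at P21 in differentiated cells, or 85.7% beside 88.3% over all bins, and among gains 44 of 67 were also higher, or 65.7% beside 78.7%. The collagen shares were below those of all bins, without a test of the difference.

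The longest gaining run of adjacent called bins in ISCs lay in Col4a2, a basement membrane chain, over intron 7 and coding exon 8. Its 4 bins at chr8:11401601-11402400 had pooled levels of 30.1% in ISCs at P0, with a 95% Wilson interval of 24.9% to 35.8%, and 70.8% in ISCs at P21, with 65.6% to 75.5%. Differentiated cells went from 37.1% to 52.0%. Both populations were thus higher at P21. Bins from about 1.3 to 2.3 kb upstream of the middle of this run were at 30% or below in all 4 libraries.

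The last bin of that run, at chr8:11402201-11402400, is shown on the plus strand. Here and in the Col13a1 and Col19a1 runs below, the bin shown has the largest ISC difference of its run. Its p-value thus belongs to a bin chosen for its size of change. Its 4 CpGs went from 13.9% to 64.1% in ISCs (adjusted p = 8.8e-15) and from 15.1% to 42.9% in differentiated cells (adjusted p = 0.0017, both Fisher's exact test).
Col4a2: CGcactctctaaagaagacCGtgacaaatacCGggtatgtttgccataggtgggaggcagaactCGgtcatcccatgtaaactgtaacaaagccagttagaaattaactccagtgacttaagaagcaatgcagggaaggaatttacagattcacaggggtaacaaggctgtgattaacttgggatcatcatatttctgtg

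The longest losing run in ISCs lay in intron 2 of Col13a1, at chr10:61416801-61417400, over 3 bins. Its pooled levels were 45.1%, 32.0%, 13.4% and 21.4%. The middle bin, at chr10:61417001-61417200, is shown on the plus strand. Its levels were 60.9%, 39.3%, 13.2% and 36.8%, a loss of 47.7 points in ISCs (adjusted p = 2.7e-06, Fisher's exact test), while the differentiated cells were not called there.
Col13a1: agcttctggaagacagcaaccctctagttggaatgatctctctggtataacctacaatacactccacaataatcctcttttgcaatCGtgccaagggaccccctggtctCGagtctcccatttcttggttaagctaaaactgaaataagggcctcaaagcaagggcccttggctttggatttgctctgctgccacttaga

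In Col19a1 2 adjacent bins of intron 15, at chr1:24389801-24390200, fell in both populations, with pooled levels of 63.6%, 69.1%, 18.0% and 23.9%. The first of them, at chr1:24389801-24390000, is shown on the plus strand. It holds 6 CpGs and had 80.0%, 86.1%, 20.6% and 29.4%, a loss of 59.4 points in ISCs (adjusted p = 3.7e-16) and 56.6 points in differentiated cells (adjusted p = 2.3e-25, Fisher's exact test).
Col19a1: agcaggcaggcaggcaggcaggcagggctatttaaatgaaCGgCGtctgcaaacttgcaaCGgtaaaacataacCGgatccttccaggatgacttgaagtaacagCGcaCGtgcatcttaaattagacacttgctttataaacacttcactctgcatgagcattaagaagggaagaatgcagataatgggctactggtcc

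**Figure D4:**
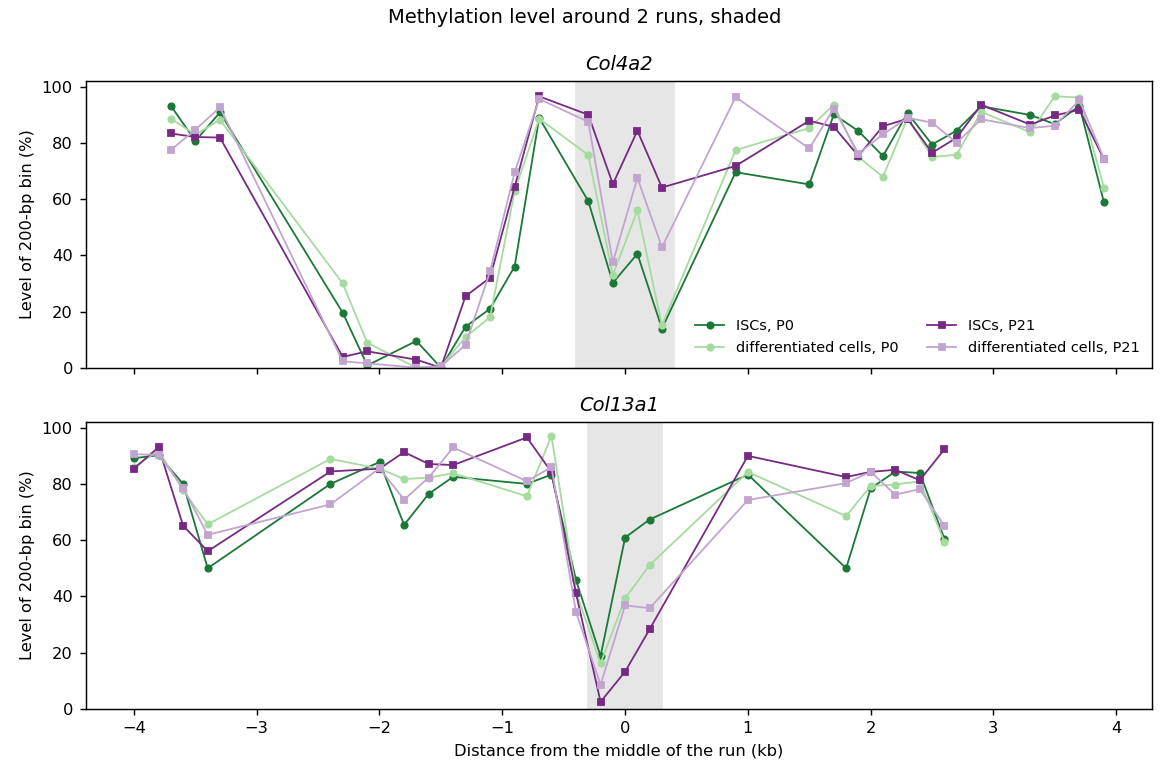
Level of each tested 200-bp bin, in percent, against distance in kb from the middle of the Col4a2 run (top) and the Col13a1 run (bottom), which are shaded, in the 4 libraries. Within the Col4a2 run the ISC line at P21 lies above that at P0, with 64.1% against 13.9% in the last bin; within the Col13a1 run it lies below, with 13.2% against 60.9% in the middle bin, and in most of the flanking bins the 4 lines lie closer together.

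The other losing runs of ISCs were of 2 bins and also fell in differentiated cells. In intron 22 of Col14a1, at chr15:55256401-55256800, levels were 65.0%, 62.2%, 23.4% and 14.3%. The first bin of that run had only 19 calls in ISCs at P0. In intron 1 of Col4a3, at chr1:82602401-82602800, levels were 66.7%, 73.2%, 21.6% and 29.3%.

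The remaining largest gains of ISCs were single bins. In exon 24 of Col28a1 the bin at chr6:8025801-8026000 had 22.2%, 71.7%, 100% and 85.7%, from only 18, 46, 20 and 21 calls. In exon 20 of the same gene the bin at chr6:8036001-8036200 had 24.2%, 54%, 70.5% and 79.5%. In the promoter of Col19a1 the bin at chr1:24595001-24595200 had 28.6%, 39.4%, 84.2% and 10%, and it also rested on few calls, 21, 33, 19 and 20. On a grid shifted by 100 bp the ISC differences over these places were 28.6 points in exon 24 and 26.3 in exon 20 of Col28a1 and 19.3 in Col19a1, where those of the bins themselves were 77.8, 46.2 and 55.6, and neither exon 20 nor Col19a1 was called.

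In differentiated cells the longest gaining runs lay in Col27a1 and Col8a2. The 3 bins of Col27a1 in intron 1, at chr4:62877401-62878000 and 1232 bp from the start, had 23.5%, 25.1%, 50% and 44.9%. The 2 bins of Col8a2, at chr4:125979401-125979800, had 51.3%, 42.1%, 65.4% and 61.5%. Both were also higher at P21 in ISCs.

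The longest losing run of differentiated cells lay in Col16a1, and among the runs of 2 bins the one in Col4a1 had the largest mean difference. The 3 bins of Col16a1 around exon 67, at chr4:129773801-129774400, had 30.1%, 34.5%, 13.1% and 7.43%. The 2 bins of Col4a1 in intron 49, at chr8:11203401-11203800, had 59.8%, 84.4%, 31.1% and 33.6%. In Col4a1 the differentiated cells were the more methylated ones at P0 and both populations were close at P21.

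**Figure D5:**
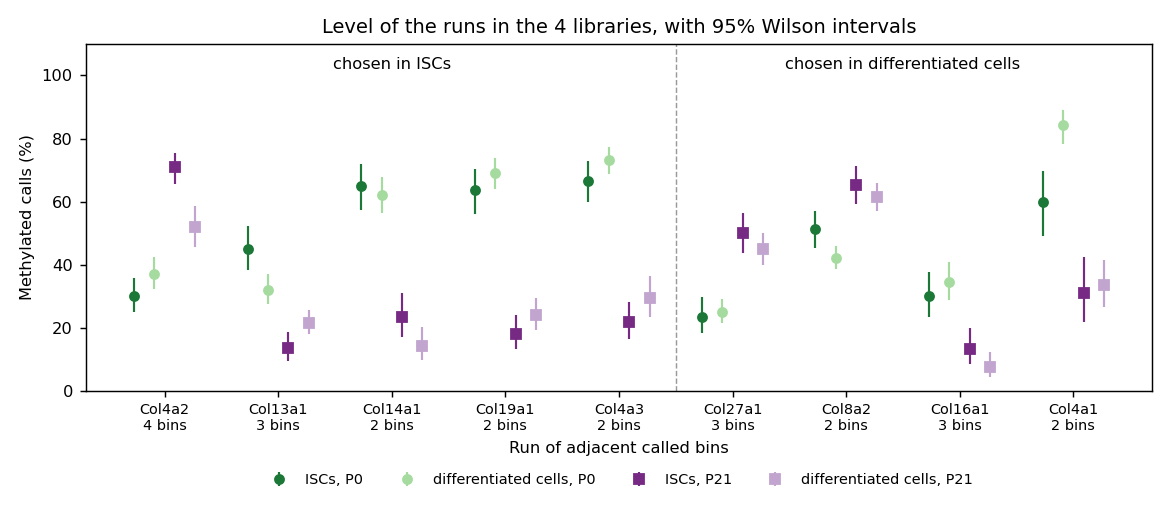
Pooled level of 9 runs of adjacent called bins, in percent of calls, in the 4 libraries, with 95% Wilson intervals for counting error; 5 runs were chosen in ISCs and 4 in differentiated cells. Both P21 symbols lie above both P0 symbols in Col4a2, Col27a1 and Col8a2 and below them in the other 6 runs.

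Bins called between populations were far fewer than bins called between ages. Without the test the counts lay much closer together, as given below. At P0, 30 collagen bins were higher in differentiated cells and 18 lower, or 0.288% and 0.173%, beside 0.288% and 0.22% of all bins. At P21, 6 were higher and 13 lower, or 0.0576% and 0.125%, beside 0.0711% and 0.111%. These shares were near the background, and no 2 called bins were adjacent.

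The bins with the largest differences at P0 were chosen for that size, so their smaller differences at P21 are no result. One of them, in intron 15 of Col13a1, had the opposite sign at P21, at 31.5 points. A bin in intron 2 of Col14a1, at chr15:55163201-55163400, had 45.7%, 96.2%, 89.7% and 93.8%, and one in intron 4 of Col9a2, at chr4:120715201-120715400, had 42.3%, 87.5%, 74.6% and 77.3%. Lower in differentiated cells were a bin in intron 15 of Col13a1, at chr10:61352001-61352200, with 71.1%, 19.8%, 20.4% and 51.9%, and one in intron 3 of Col4a2, at chr8:11332801-11333000, with 85.9%, 40.7%, 80.4% and 68.2%. These differences depended on where the bins began. On the shifted grid the 50.4 points of Col14a1 became 26.9 and the 45.2 of Col9a2 became 24.7, while -51.3 of Col13a1 became -9.86 and -45.2 of Col4a2 became -13.8, and Col4a2 was no longer called.

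At P21 a bin in intron 4 of Col11a1, a minor fibrillar collagen of cartilage, had 93.3%, 81.2%, 69.0% and 100%. A bin in intron 53 of Col12a1 had 57.1%, 67%, 27.0% and 57.8%. Both were higher in differentiated cells, while a bin in intron 27 of Col6a2 was lower, with 50%, 61.2%, 83.3% and 38.2%. The promoter bin of Col19a1 given above was the other of the largest losses. On the shifted grid the difference was -14.4 instead of -45.2 points in Col6a2 and -17.7 instead of -74.2 in Col19a1, and neither was called.

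Whether the change with age differed between populations was tested directly in each bin, as a difference of differences. It was called in 50 collagen bins, or 0.48%, beside 0.518% of all bins, in 25 genes. In the bin in intron 15 of Col13a1 the populations moved in opposite directions, as ISCs lost 50.7 points and differentiated cells gained 32.1, a difference of 82.8 points that passed the adjusted z test on the grid used here.

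Genes that fold, modify, crosslink, bind or degrade collagens held 5431 bins in 44 genes, and their shares of calls are given beside those of all bins. In ISCs 51 bins gained and 98 lost with age, or 0.939% and 1.80%, beside 1.07% and 1.48%. In differentiated cells 54 gained and 125 lost, or 0.994% and 2.30%, beside 0.992% and 1.86%. The shares of losses lay above those of all bins and the shares of gains lay below or close to them, without a test of the list. Adjacent bins were counted singly, and the losses of ISCs included runs of 4, 4 and 3 bins in Itga2 alone. Over the whole list, differentiated cells were higher in 14 and lower in 14 bins at P0, each 0.258%, beside 0.288% and 0.22%. At P21 they were higher in 6 and lower in 6, each 0.11%, beside 0.0711% and 0.111%.

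Serpinh1, which codes for the collagen chaperone HSP47, had the longest run. Its 5 bins in intron 1, at chr7:106500401-106501400, went from 26.8% to 67.9% in ISCs and from 27.0% to 66.2% in differentiated cells. Its promoter, which takes in part of this run, had 24.4%, 25.1%, 41.2% and 43.3% and was called in both. Pcolce, the enhancer of procollagen C-proteinase, had a promoter at 53.1%, 54.5%, 66.7% and 67.1%, also called in both, and a run of 3 bins at 25.5%, 22.7%, 47.5% and 39.6%.

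Itga2 and Itga11, the alpha chains of collagen-binding integrins, had losing runs in introns. In intron 1 of Itga2, 4 bins at chr13:115720401-115721200 had 56.4%, 52.3%, 4.24% and 10.1%. Itga2 also had gaining runs around exon 20, of which the 3 bins at chr13:115645801-115646400 had 52.4%, 48.2%, 70.6% and 74.8%. In intron 2 of Itga11, 4 bins at chr9:62570401-62571200 had 58.6%, 62.0%, 23.1% and 21.8%. Of the enzymes, P4ha2, a prolyl 4-hydroxylase subunit, had a run of 3 bins at 89.5%, 87.0%, 66.1% and 69.7%, and Loxl2, a lysyl oxidase relative that crosslinks collagen, one at 78.5%, 75.4%, 46.8% and 51.7%. A run of 3 bins in intron 3 of Crtap, also on the list, had 73.9%, 62.9%, 39.6% and 35.7%. In each of these runs both populations moved the same way.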

How the data were processed

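Sorted colonic ISCs and differentiated cells of P0 and P21 mice were profiled by whole-genome bisulfite sequencing, 1 library per group. The authors trimmed paired reads and aligned them to mm9 with Bismark and Bowtie; their versions and the handling of duplicates were not given in the sources used here. The deposited files give, per cytosine in CpG context, counts of methylated and unmethylated calls, and the authors' methylation fraction, which was not used.

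Calls of both strands were summed per CpG and per 200-bp bin on 19 autosomes; bins with 2 or more CpGs and 10 or more calls in all 4 libraries were tested. Two-sided Fisher's exact tests with Benjamini-Hochberg adjustment ran over all tested bins, or over all promoters, bodies or last exons of GENCODE M1 protein-coding genes, and a z test with 0.5 added to each count tested the difference of differences. Calls needed an adjusted p below 0.05 and more than 15 points (bins), 10 points (promoters and last exons) or 5 points (bodies). For a region the test used its summed calls, while the difference came from means of bin levels. With 1 library per group, p-values compare 2 libraries. Wilson intervals (95%) cover counting error alone and treat calls as independent. Reads carry no molecular identifiers and one read can give several calls, so intervals may be too narrow and p-values too small. CpG islands were windows of 500 bp with 25 or more CpGs.

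Members and lists were chosen with earlier results of these data known. Named were all members with a called region, the extremes of each class, the head-to-head pairs, the 4 gaining and 4 losing runs with most bins in ISCs, 2 of each in the other comparisons, the 6 largest differences of differences, stromal, epithelial and basement membrane collagens, and up to 6 processing genes by run length. Crtap, whose longest run had 3 bins like the shortest of those named, was added to the processing genes. Examples of body and exon levels were chosen after their values were seen. Sequences were read from mm9. The code, in Python 3.11.15 with numpy 2.4.6, scipy 1.17.1, numba 0.67.0, pandas 2.3.3 and matplotlib 3.10.9, was tested on simulated data. Alternatives changed the minimum of calls and CpGs, the difference required, depth, bin grid, start site, promoter width, density class and pooling; those of exon and body changes were chosen after seeing the data.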

Additional observations from a re-analysis of the deposited data

Results flagged for a closer look

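In 6 collagen bins the change from P0 to P21 differed between ISCs and differentiated cells in the adjusted z test of that difference, which approximates low counts, with the largest values of the family. In the promoter bin of Col19a1 at chr1:24595001-24595200, the change of differentiated cells minus that of ISCs was -85.0 points, from levels of 28.6%, 39.4%, 84.2% and 10%. In intron 15 of Col13a1 it was 82.8 points. In Col14a1, the bin at chr15:55244201-55244400 had -75.5 points, from 54.5%, 69.2%, 80.8% and 20%. In Col19a1, the bin at chr1:24356801-24357000 had -64.1 points, from 50%, 77.0%, 90.9% and 53.8%. In exon 24 of Col28a1 the value was -63.8 points. In Col23a1, a transmembrane collagen, the bin at chr11:51384401-51384600 had -61.4 points, from 30.3%, 68.9%, 75% and 52.2%. In 5 of the 6 bins ISCs gained and differentiated cells gained less or lost, and in Col13a1 the directions were the other way round. The 6 bins were chosen by size among 50 called, and the z test was not rerun on the shifted grid. Some values rested on few calls. Differentiated cells at P21 had 15 calls in the Col14a1 bin and 20 in the Col19a1 promoter bin. ISCs at P0 had 18 calls in exon 24 of Col28a1.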

How the results depend on the processing

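The called collagen bins were 200 and 231 with age in ISCs and differentiated cells, and 48 and 19 between populations at P0 and P21. With 4 CpGs per bin the age counts were 114 and 103. With more than 30 points all 4 were 106, 85, 18 and 8, with calls thinned to the shallowest library 124, 96, 8 and 4, and with 15 points but no test 1343, 1168, 1101 and 1021. Minimums of 20 or 40 calls, a grid shifted by 100 bp and leaving out bins of over 1000 calls kept each count within 1.5 times. For processing genes, counts of 149, 179, 28 and 12 became 76, 60, 9 and 6 with more than 30 points. Called regions, 0, 2, 2 and 0, became 1, 4, 3 and 1 within 500 bp of the start, 7 and 1 between populations at P0 and P21 with calls pooled, and 0 at P0 with 20 calls. The Col6a3 promoter difference was 8.47 points within 500 bp and 6.47 with 20 calls, and was called in neither. Low minus high density in promoter medians of ISCs at P0 was 55.3 points, 49.1 from the most upstream start, 38.7 within 500 bp and 27.1 by CpG island. No result that was rerun changed direction, and not every result given above was rerun. The 20 named runs and single bins were rerun on the shifted grid and with 20 calls. In 32 of 37 reruns at least 1 overlapping bin was called in the same direction, and in 5, all on the shifted grid, none was, in Col19a1 (both comparisons), Col28a1, Col4a2 and Col6a2. The reruns with 20 calls kept the same bins and counts, so their calls could hardly change and they are no check. Only the shifted grid could fail, and it shares part of the reads. The pooled difference over the overlapping bins could still be far smaller, as given beside these results. The Col28a1 bin in exon 24 and the Col19a1 promoter bin gave no value with 20 calls, since both fell below that minimum. The last-exon difference of Col14a1 was 13.5 points with calls pooled. No paired analysis was possible because each group was 1 library. Depth limits single bins, whose median of 57 calls in ISCs at P0 leaves wide intervals.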

Other observations

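Several bins outside the runs named above fell steeply in both populations. In exon 22 of Col28a1, the bin at chr6:8030201-8030400 had 86.2%, 86.0%, 26.1% and 15%. In intron 1 of Col27a1, the bin at chr4:62879801-62880000 had 82.2%, 85.3%, 18.7% and 20.6%. In intron 42 of Col16a1, the bin at chr4:129752601-129752800 had 54.3%, 58.1%, 6.13% and 5.58%. In intron 37 of Col18a1, the bin at chr10:76519801-76520000 had 72.7%, 60.2%, 9.80% and 15.2%. The Col16a1 bin was part of a losing run of 2 bins in differentiated cells, and the Col18a1 bin of one of 2 bins in both populations. These bins were chosen after their values were seen.

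Within 200 bp of the Col18a1 start used above, the levels were 34.9%, 44.8%, 50.9% and 32.8%.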
